A study of Mus musculus with 30 samples.

Results

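The genes described here belong to the classical guidance families: the semaphorins with their plexin and neuropilin receptors, the Slits with their Robo receptors, the netrins with the Unc5 receptors, and the ephrins with the Eph receptors. Members were chosen by gene symbol alone (symbols that begin with Sema, Plxn, Robo, Unc5, Ntn, Epha, Ephb, Efna or Efnb, together with Slit1 to Slit3, Nrp1 and Nrp2), and where a gene had several probe sets the brightest one, averaged across all 30 arrays, stood for it. This gave 72 of the 18194 genes represented on the array: 20 semaphorins, 10 plexins, 2 neuropilins, 3 Slits, 4 Robo genes, 6 netrins, 6 genes whose symbol begins with Unc5, 8 ephrins and 13 Eph receptors. The symbol rule also takes in Unc50, which encodes a Golgi protein, Unc5cl, a gene named for its likeness to the Unc5 receptors, and Plxna4os1, a transcript from the opposite strand of Plxna4.

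The RNA came from C2C12 cells, a mouse myoblast line derived from regenerating muscle, which forms muscle cells when serum is reduced and takes an osteoblast-like course when bone morphogenetic protein 2 (BMP2) is added. C2C12-pMirn378 cells carried a lentiviral vector with the miR-378 precursor and C2C12-pMirn0 cells the same vector without it. Each was a single stably transduced population sorted on the vector's copGFP marker, so a difference between the lines and a difference between these 2 sorted populations cannot be told apart. Both lines were sampled before differentiation (d0) and after 3 and 6 days (d3 and d6) in low-serum medium with 300 ng/ml BMP2 or untreated, which gave 10 groups of 3 arrays. The array carries no probe set named for miR-378, so its level was not checked here.

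Guidance molecules are ligands and receptors that steer growing axons and migrating cells, and the same families shape muscle, vessels and bone. Semaphorins signal through plexins, the secreted class 3 members mostly with a neuropilin as co-receptor; Slits bind Robo receptors; netrins bind Dcc, neogenin and Unc5 receptors. Ephrins are held at the cell surface, by a lipid anchor in the A class and by a membrane span in the B class, and bind Eph receptor tyrosine kinases on neighbouring cells.

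Of the 72 genes, 52 reached the median of all values on all arrays (an intensity of 76.46) in the mean of at least 1 group, and 37 did so in all 10 groups. The other 20 lay below it throughout: Epha3, Epha5, Epha6, Epha8, Epha10 and Ephb1 among the Eph receptors, Sema4a, Sema4g, Sema5b and Sema6b among the semaphorins, and Ntn3, Ntng1, Ntng2, Robo2, Robo4, Slit3, Unc5a, Unc5cl, Unc5d and Plxna4os1. All 8 ephrins and 9 of the 10 plexins were above this floor, against 7 of the 13 Eph receptors and 2 of the 4 Robo genes. The median standard deviation between the replicates of a group was 0.18 on the log2 scale for the 52 brighter members and 0.86 for the 20 dim ones.

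**Figure D1:**
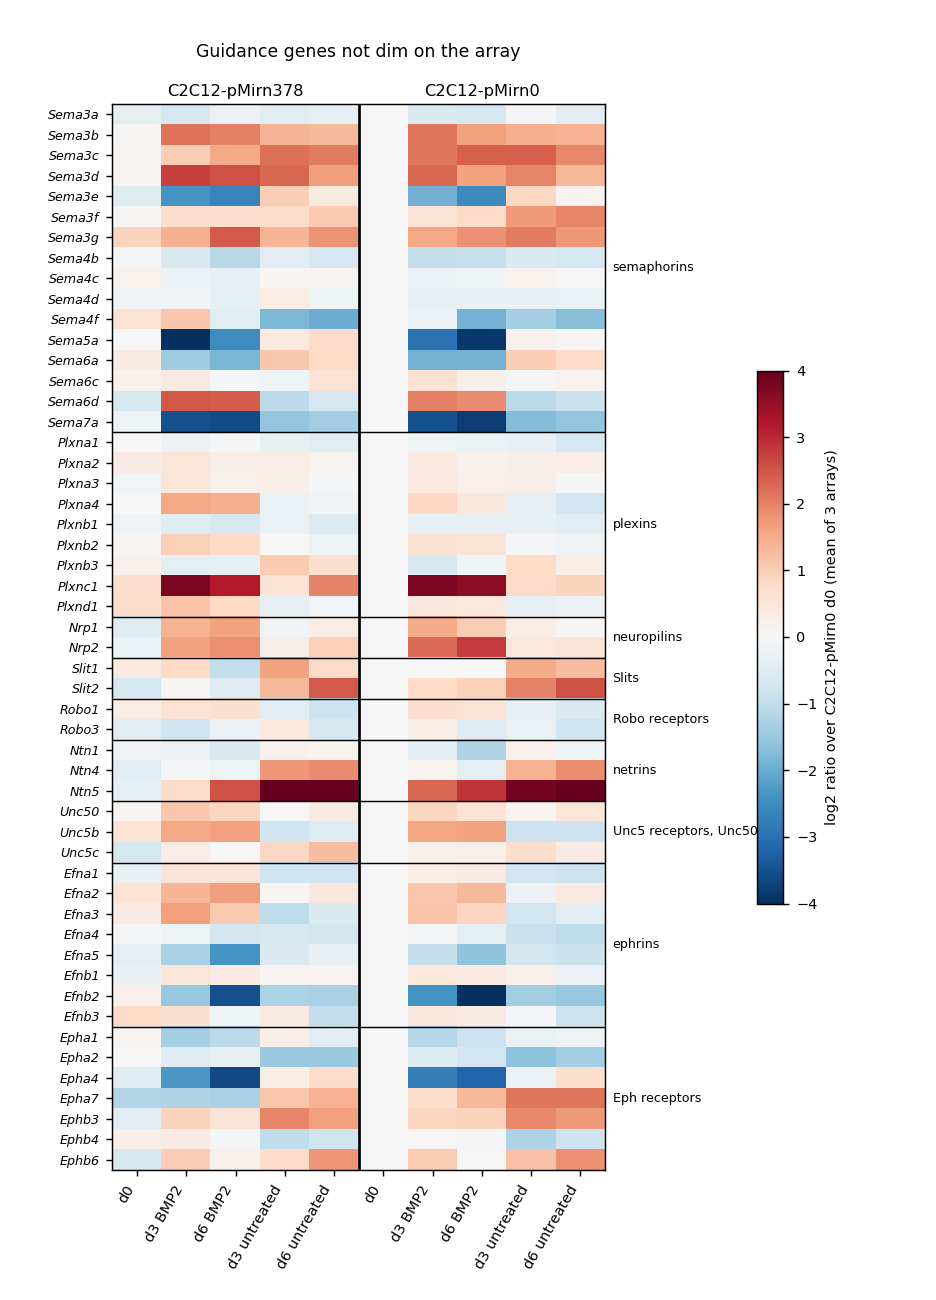
Mean log2 intensity of each of the 52 guidance genes above the floor in the 10 groups, drawn as the log2 ratio over C2C12-pMirn0 at d0 (colour scale), with genes in rows ordered by family, groups in columns, C2C12-pMirn378 on the left, and ratios past ±4 in the end colours. Sema6d, Unc5b, Plxnc1 and Nrp2 stand out as high in the BMP2 columns of both lines, and Sema5a, Sema3e, Sema6a and Epha4 as low there.

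Across the series, array medians lay between 68.04 and 82.66 and arrays of 1 group correlated at 0.9476 to 0.9572 over all probe sets. Summed over 8 muscle genes, intensity in C2C12-pMirn378 at d3 and d6 was 11761 to 13369 and 8021 to 9088 with BMP2, against 89136 to 94358 and 76305 to 86443 untreated. Summed over 4 bone genes, it was 9664 to 10965 in C2C12-pMirn378 and 5569 to 5843 in C2C12-pMirn0 with BMP2 at d3, and at most 611.1 in any array without BMP2. Markers of other cells moved with BMP2 too: Stmn2 of the neuronal list, Fabp4 of the adipocyte list and Csf1r of the blood list were called higher in all 4 comparisons with untreated cells. Tubb3, also of the neuronal list, was called higher in C2C12-pMirn378 at d3 but lower in C2C12-pMirn0 at d6. In C2C12-pMirn378 at d3, the sum over 6 neuronal markers was 9628 to 10468 with BMP2 against 1057 to 1174 untreated, that over 2 adipocyte markers 1564 to 1725 against 10.19 to 42.95, that over 3 blood markers 900.1 to 1026 against 138.3 to 151.3, and that over 4 genes of dividing cells 12008 to 12376 against 3434 to 4479. At d6 the dividing-cell sum was lower with BMP2 in both lines. It was 1585 to 1810.3 against 3162 to 3899 untreated in C2C12-pMirn378, and 1695 to 1718 against 2619.7 to 2958 in C2C12-pMirn0. Of these lists, 3 neuronal markers (Stmn2, Tubb3 and Syn1), 1 adipocyte marker (Fabp4, with Adipoq below the floor) and 2 blood markers (Csf1r and Cd68, with Ptprc below it) were above the floor, and none of 4 endothelial markers was. The part of these markers in the BMP2 changes of the guidance genes was not tested. In RNA from whole cultures, fewer cells of a type and less RNA per cell cannot be told apart.

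Calls were many with BMP2 and over differentiation and few between the lines. A gene was called changed when limma's adjusted p, over all 45101 probe sets, was below 0.005 and its log2 ratio lay beyond ±0.6, both for its brightest probe set. In C2C12-pMirn378, 17 members were higher and 13 lower with BMP2 than untreated at d3, where 13.3% and 9.84% of all genes were called, and 14 were higher and 17 lower at d6, where 10.8% and 11.1% were. In C2C12-pMirn0, 19 were higher and 12 lower at d3, against 11.2% and 8.48% of all genes, and 12 were higher and 13 lower at d6, against 11.0% and 10.6%. As shares of the 72 members these were 23.6% and 18.1%, 19.4% and 23.6%, 26.4% and 16.7%, and 16.7% and 18.1%, with median log2 ratios over the members of 0.10, 0.05, 0.04 and 0.03, against -0.03, -0.03, 0.05 and 0.08 over all genes. Each day's BMP2 arrays were set against the untreated arrays of the same line and day. Called in at least 3 of these 4 comparisons were 14 genes that were raised (Efna1, Efna3, Epha2, Nrp1, Nrp2, Plxna4, Plxnb2, Plxnc1, Plxnd1, Robo1, Sema3b, Sema4f, Sema6d and Unc5b) and 13 that were lowered (Efnb2, Epha4, Ephb3, Ntn1, Ntn4, Ntn5, Plxnb3, Sema3e, Sema5a, Sema6a, Sema7a, Slit1 and Slit2). The share of all genes that pass this rule of 3 out of 4 comparisons was not counted, so the 14 and 13 have no background beside them. With only the 6 arrays of a comparison in the fit, fewer members were called, for example 8 higher and 6 lower in C2C12-pMirn0 at d3.

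**Figure D2:**
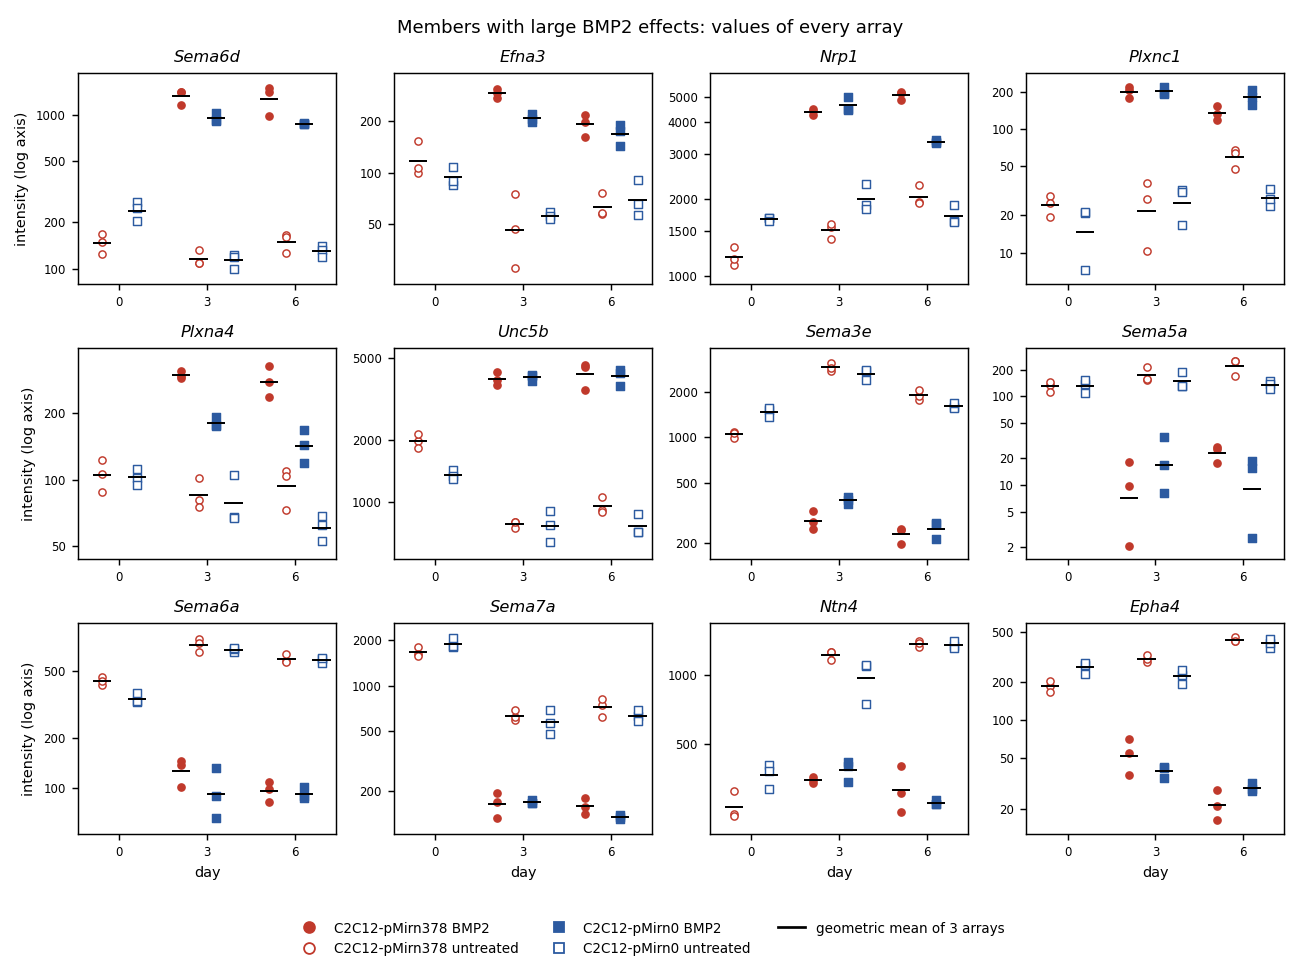
Intensity (log axis) of 12 guidance genes with large BMP2 ratios, 1 panel per gene, by day, each point 1 array (filled with BMP2, open untreated; circles C2C12-pMirn378, squares C2C12-pMirn0) and bars the geometric mean of 3. Sema6d, Plxnc1, Unc5b and Efna3 lie higher with BMP2, and Sema5a, Sema3e, Sema6a and Epha4 lower, with no overlap between the 3 BMP2 and the 3 untreated arrays of a line and day.

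Among the ligands, the semaphorins moved in both directions. At d3, Sema6d, a membrane-spanning semaphorin that binds plexin A1, measured 1419.6, 1429 and 1164 with BMP2 against 109, 108 and 132 untreated in C2C12-pMirn378, and 919.6, 933 and 1030.1 with BMP2 against 122, 100.0 and 119 untreated in C2C12-pMirn0. Sema6d at d6 measured 1505, 992 and 1416 with BMP2 against 166, 126 and 160.2 untreated in C2C12-pMirn378, and 873, 895 and 882 with BMP2 against 140.2, 133 and 119 untreated in C2C12-pMirn0. Every BMP2 array lay above every untreated one of its line and day, and the log2 ratios (± SE) of 3.52 ± 0.15 at d3 and 3.10 ± 0.15 at d6 in C2C12-pMirn378, and 3.08 ± 0.15 at d3 and 2.76 ± 0.15 at d6 in C2C12-pMirn0 were the largest rises of any member in all 4 comparisons (limma adjusted p at most 1.38e-12). The next brightest Sema6d probe set was called in C2C12-pMirn378 at d3, but not at d6 or in C2C12-pMirn0 at either day. At d3, Sema4f, another membrane-spanning semaphorin, measured 1197, 1266 and 1259 with BMP2 against 148, 169 and 198 untreated in C2C12-pMirn378, and 434, 519 and 551 with BMP2 against 224, 207 and 246 untreated in C2C12-pMirn0. Sema4f at d6 measured 444, 437 and 412 with BMP2 against 148, 142 and 152 untreated in C2C12-pMirn378, and 162, 157 and 153 with BMP2 against 176, 184 and 184 untreated in C2C12-pMirn0. The BMP2 arrays of C2C12-pMirn378 were higher at both days, by 2.86 ± 0.09 and 1.55 ± 0.09, whereas in C2C12-pMirn0 they were higher at d3, by 1.15 ± 0.09, and at d6 their ratio was not called (-0.21 ± 0.09, limma adjusted p = 0.0948). The Sema4f probe set is of a type that may hybridise to related transcripts. Sema3b, a secreted semaphorin, was also raised, with ratios of 0.81 and 0.73 in C2C12-pMirn378 at d3 and d6, and 0.72 and 0.25 in C2C12-pMirn0, of which the last was not called.

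Of the semaphorins that fell, Sema5a spans the membrane and carries thrombospondin repeats. At d3, Sema5a measured 18.2, 2.04 and 9.71 with BMP2 against 216, 152 and 159 untreated in C2C12-pMirn378, and 16.8, 35.2 and 8.1 with BMP2 against 191, 130.1 and 129.8 untreated in C2C12-pMirn0. Sema5a at d6 measured 26.5, 17.6 and 25.7 with BMP2 against 254, 171 and 250.4 untreated in C2C12-pMirn378, and 18.7, 2.5 and 15.4 with BMP2 against 149, 139 and 120.2 untreated in C2C12-pMirn0. With BMP2 the values lay between 2.04 and 35.2, under the array median, and untreated between 120.2 and 254, and the log2 ratios of -4.61 ± 0.66 at d3 and -3.27 ± 0.66 at d6 in C2C12-pMirn378, and -3.13 ± 0.66 at d3 and -3.91 ± 0.66 at d6 in C2C12-pMirn0 carried wide errors (limma adjusted p at most 0.000605). Without BMP2 replicate 3 in C2C12-pMirn0 at d3 the ratio was -2.60 and was no longer called, and with values under 50 set to 50 all 4 ratios stayed called but shrank to between -2.15 and -1.44.

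Sema3e is a secreted semaphorin that binds plexin D1 without a neuropilin. At d3, Sema3e measured 247, 278 and 325 with BMP2 against 3086, 2746 and 2873 untreated in C2C12-pMirn378, and 387, 404 and 364 with BMP2 against 2722, 2785 and 2384 untreated in C2C12-pMirn0. Sema3e at d6 measured 249, 199 and 245 with BMP2 against 1757, 1875 and 2034 untreated in C2C12-pMirn378, and 213, 273 and 269 with BMP2 against 1584, 1556 and 1693 untreated in C2C12-pMirn0. BMP2 arrays lay between 199 and 404 and untreated arrays between 1556 and 3086, and the ratios were -3.36 ± 0.11 at d3 and -3.04 ± 0.11 at d6 in C2C12-pMirn378, and -2.77 ± 0.11 at d3 and -2.69 ± 0.11 at d6 in C2C12-pMirn0 (limma adjusted p at most 8.7e-15). Sema6a, a membrane-spanning ligand of plexins A2 and A4, also fell. At d3, Sema6a measured 145, 101 and 137 with BMP2 against 781, 730.0 and 651 untreated in C2C12-pMirn378, and 89.3, 66.2 and 132 with BMP2 against 649, 674 and 689.6 untreated in C2C12-pMirn0. Sema6a at d6 measured 82, 108 and 98 with BMP2 against 577, 564 and 634 untreated in C2C12-pMirn378, and 86.9, 102 and 89.2 with BMP2 against 589, 558 and 596 untreated in C2C12-pMirn0. Its groups did not overlap either, with ratios of -2.51 ± 0.17 at d3 and -2.63 ± 0.17 at d6 in C2C12-pMirn378, and -2.87 ± 0.17 at d3 and -2.65 ± 0.17 at d6 in C2C12-pMirn0 (limma adjusted p at most 3.38e-11).

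Sema7a is anchored to the membrane by lipid and binds plexin C1 and beta1 integrins. At d3, Sema7a measured 169.7, 134 and 195 with BMP2 against 595, 619 and 689.7 untreated in C2C12-pMirn378, and 175, 168 and 167 with BMP2 against 688, 569 and 480.1 untreated in C2C12-pMirn0. Sema7a at d6 measured 142, 181 and 158 with BMP2 against 749, 619 and 819.7 untreated in C2C12-pMirn378, and 135, 139 and 132 with BMP2 against 628, 587 and 689 untreated in C2C12-pMirn0. BMP2 values lay between 132 and 195 and untreated values between 480.1 and 819.7, and the log2 ratios were -1.95 ± 0.14 at d3 and -2.18 ± 0.14 at d6 in C2C12-pMirn378, and -1.75 ± 0.14 at d3 and -2.23 ± 0.14 at d6 in C2C12-pMirn0 (limma adjusted p at most 4.3e-10). The remaining semaphorins above the floor, Sema3a, Sema3f, Sema3g, Sema4b, Sema4c, Sema4d and Sema6c, were called in none of the 4 comparisons (although another Sema3a probe set was called lower in C2C12-pMirn0, with -0.89 at d3 and -0.75 at d6), while Sema3c and Sema3d were called in 1 each, both in C2C12-pMirn378. The dim Sema4g was called higher in C2C12-pMirn0 at d3 (2.08 ± 0.47), and that call was lost without either of BMP2 replicates 2 and 3 or untreated replicates 1 and 2, at 1.90 to 2.04, and with values under 50 set to 50 (0.51).

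The netrins and Slits that were called all fell. Netrin 4 is a basement membrane protein related to the laminins. At d3, Ntn4 measured 348, 339 and 359 with BMP2 against 1160.1, 1249 and 1258 untreated in C2C12-pMirn378, and 344, 400.0 and 417 with BMP2 against 744, 1093 and 1104 untreated in C2C12-pMirn0. Ntn4 at d6 measured 403, 255 and 308 with BMP2 against 1318, 1397 and 1366 untreated in C2C12-pMirn378, and 274, 286 and 275 with BMP2 against 1327, 1303 and 1401 untreated in C2C12-pMirn0. The groups did not overlap, and the ratios were -1.81 ± 0.15 at d3 and -2.10 ± 0.15 at d6 in C2C12-pMirn378, and -1.32 ± 0.15 at d3 and -2.27 ± 0.15 at d6 in C2C12-pMirn0 (limma adjusted p at most 1.7e-07). At d3, Ntn5 measured 16.1, 67.2 and 17.1 with BMP2 against 384, 310.1 and 347 untreated in C2C12-pMirn378, and 135, 84.2 and 43.2 with BMP2 against 234, 202 and 251 untreated in C2C12-pMirn0. Ntn5 at d6 measured 100.0, 124 and 63.2 with BMP2 against 468, 508 and 520.5 untreated in C2C12-pMirn378, and 127, 121 and 104 with BMP2 against 483, 451 and 492 untreated in C2C12-pMirn0. BMP2 arrays were lower throughout, with log2 ratios of -3.71 ± 0.42 at d3 and -2.44 ± 0.42 at d6 in C2C12-pMirn378, and -1.53 ± 0.42 at d3 and -2.02 ± 0.42 at d6 in C2C12-pMirn0, of which the d3 ratio in C2C12-pMirn0 was not called (limma adjusted p = 0.00654). Netrin 1, the best known ligand of Dcc and the Unc5 receptors, fell by less, with ratios of -0.44 and -0.71 in C2C12-pMirn378 at d3 and d6, and -0.65 and -1.05 in C2C12-pMirn0, of which the first was not called, and its other probe set, below the floor, gave -0.68 and -0.44 in C2C12-pMirn378 and -0.05 and 0.13 in C2C12-pMirn0.

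Slit2, a secreted ligand of Robo1 and Robo2, was lower with BMP2 on every array. At d3, Slit2 measured 398, 431 and 453 with BMP2 against 943, 1035 and 1040.2 untreated in C2C12-pMirn378, and 689.9, 761 and 701 with BMP2 against 1549.8, 1782 and 1535 untreated in C2C12-pMirn0. Slit2 at d6 measured 294, 292 and 282 with BMP2 against 2117, 2333 and 2258 untreated in C2C12-pMirn378, and 783, 806 and 805 with BMP2 against 2293, 2332 and 2499.9 untreated in C2C12-pMirn0. The ratios were -1.24 ± 0.08 at d3 and -2.95 ± 0.08 at d6 in C2C12-pMirn378, and -1.18 ± 0.08 at d3 and -1.57 ± 0.08 at d6 in C2C12-pMirn0 (limma adjusted p at most 7.32e-11), and all 3 Slit2 probe sets ran the same way. Slit1 lay near the floor. At d3, Slit1 measured 95.8, 106 and 50.5 with BMP2 against 124, 123 and 179.9 untreated in C2C12-pMirn378, and 53.1, 55.3 and 31.1 with BMP2 against 124, 105 and 166 untreated in C2C12-pMirn0. Slit1 at d6 measured 21, 29.7 and 20.4 with BMP2 against 72.6, 84.7 and 79.4 untreated in C2C12-pMirn378, and 58.8, 32.9 and 48.8 with BMP2 against 106, 96.9 and 123 untreated in C2C12-pMirn0. No arrays overlapped, and 3 of the 4 ratios were called, -1.75 ± 0.27 in C2C12-pMirn378 at d6 and -1.52 ± 0.27 and -1.25 ± 0.27 in C2C12-pMirn0 at d3 and d6, but its next brightest probe set, below the floor, gave 0.90 and 0.13 in C2C12-pMirn0. The call in C2C12-pMirn0 at d6 was lost without BMP2 replicate 2 (-1.01) or untreated replicate 3 (-1.15), and that in C2C12-pMirn378 at d6 with values under 50 set to 50 (-0.65).

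A-class ephrins that were called rose, except Efna5, which fell in C2C12-pMirn378 at d6 with a log2 ratio of -2.10 ± 0.23. At d3, Efna3 measured 309.8, 294 and 272 with BMP2 against 27.6, 75.1 and 46.7 untreated in C2C12-pMirn378, and 199, 207 and 219 with BMP2 against 59, 55.5 and 53.4 untreated in C2C12-pMirn0. Efna3 at d6 measured 218, 162 and 198 with BMP2 against 57.1, 57.9 and 75.7 untreated in C2C12-pMirn378, and 175, 144 and 190.0 with BMP2 against 65.1, 90.2 and 56.6 untreated in C2C12-pMirn0. Its BMP2 arrays were all higher, by 2.67 ± 0.25 at d3 and 1.60 ± 0.25 at d6 in C2C12-pMirn378, and 1.90 ± 0.25 at d3 and 1.29 ± 0.25 at d6 in C2C12-pMirn0 (limma adjusted p at most 0.000215). Efna1 rose in all 4 comparisons too, by 1.32 and 1.32 in C2C12-pMirn378 at d3 and d6, and 1.08 and 1.16 in C2C12-pMirn0, and Efna4 in C2C12-pMirn0 at d3 and d6, by 0.79 and 0.63, the d6 call being lost without BMP2 replicate 2 (0.59) or untreated replicate 1 or 2 (0.60 and 0.57). Efna2 at d3 measured 444, 442 and 483 with BMP2 against 164, 226 and 177 untreated in C2C12-pMirn378, and 315, 449 and 378 with BMP2 against 75, 174 and 259 untreated in C2C12-pMirn0, and these arrays did not overlap within a line. The Efna2 ratios of 1.28 ± 0.33 and 1.33 ± 0.33 passed the threshold narrowly (limma adjusted p = 0.0039 and 0.00338), and the calls were lost without any single array of the C2C12-pMirn378 comparison, at ratios of 1.19 to 1.42, and of the C2C12-pMirn0 comparison apart from untreated replicate 3, at 0.83 to 1.46. At d6 the brightest Efna2 probe set gave 1.22 in C2C12-pMirn378 and 0.93 in C2C12-pMirn0, neither called. The other Efna2 probe set, also above the floor, was called higher with BMP2 in all 4 comparisons, at 1.23 to 1.90. Ephrin B2, a ligand of Ephb4 and Epha4, went down. At d3, Efnb2 measured 954, 949.8 and 939 with BMP2 against 1268, 977 and 1207 untreated in C2C12-pMirn378, and 567, 483 and 505 with BMP2 against 946, 930.1 and 1290.4 untreated in C2C12-pMirn0. Efnb2 at d6 measured 261, 169 and 306 with BMP2 against 1220.0, 949.6 and 1144 untreated in C2C12-pMirn378, and 163, 136 and 166 with BMP2 against 987, 896 and 955 untreated in C2C12-pMirn0. The fall was largest at d6, -2.21 ± 0.16 in C2C12-pMirn378 and -2.61 ± 0.16 in C2C12-pMirn0, and at d3 it was called in C2C12-pMirn0 (-1.01 ± 0.16) but not in C2C12-pMirn378 (-0.27 ± 0.16, limma adjusted p = 0.233). Efnb3 was called in no comparison, nor was Efnb1 through its brightest probe set. Another Efnb1 probe set above the floor was called higher with BMP2 in C2C12-pMirn378 at d6 (0.98) and in C2C12-pMirn0 at d3 and d6 (1.01 and 1.19), and the remaining one in C2C12-pMirn378 at d3 (0.71) and in C2C12-pMirn0 at d6 (0.83).

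On the receptor side, the plexins called through their brightest probe sets rose, other than Plxnb3. Plexin C1 is the receptor of Sema7a. At d3, Plxnc1 measured 207, 216 and 178 with BMP2 against 10.3, 36.6 and 27.3 untreated in C2C12-pMirn378, and 196, 218 and 191 with BMP2 against 32, 30.7 and 16.6 untreated in C2C12-pMirn0. Plxnc1 at d6 measured 131, 119 and 153 with BMP2 against 67.9, 47.7 and 64 untreated in C2C12-pMirn378, and 179.5, 206 and 157 with BMP2 against 23.7, 27.1 and 33 untreated in C2C12-pMirn0. BMP2 arrays were above the untreated ones in every case, by 3.20 ± 0.38 at d3 and 1.18 ± 0.38 at d6 in C2C12-pMirn378, and 2.99 ± 0.38 at d3 and 2.70 ± 0.38 at d6 in C2C12-pMirn0, the ratio in C2C12-pMirn378 at d6 being the one not called (limma adjusted p = 0.0199). Plexin A4 works with neuropilins as a class 3 semaphorin receptor and also binds Sema6a. At d3, Plxna4 measured 289.6, 309 and 294 with BMP2 against 102, 81 and 74.9 untreated in C2C12-pMirn378, and 174, 176 and 191 with BMP2 against 105, 67.9 and 67.3 untreated in C2C12-pMirn0. Plxna4 at d6 measured 277, 236 and 328 with BMP2 against 72.8, 109 and 104 untreated in C2C12-pMirn378, and 167, 143 and 119 with BMP2 against 62, 68.2 and 52.7 untreated in C2C12-pMirn0. None of these groups overlapped, and the ratios were 1.80 ± 0.19 at d3 and 1.57 ± 0.19 at d6 in C2C12-pMirn378, and 1.20 ± 0.19 at d3 and 1.22 ± 0.19 at d6 in C2C12-pMirn0 (limma adjusted p at most 1.75e-05). Plxnb2, a receptor of class 4 semaphorins, and Plxnd1, the receptor of Sema3e, rose in all 4 comparisons, Plxnb2 by 0.91 and 1.02 in C2C12-pMirn378 at d3 and d6, and 0.69 and 0.73 in C2C12-pMirn0 and Plxnd1 by 1.54 and 0.89 in C2C12-pMirn378 at d3 and d6, and 0.85 and 0.66 in C2C12-pMirn0. Plxnb3 fell, with ratios of -1.41 and -0.98 in C2C12-pMirn378 at d3 and d6, and -1.42 and -0.43 in C2C12-pMirn0, of which the last was not called and the d6 ratio in C2C12-pMirn378 was lost without BMP2 replicate 2 (-0.77). The other Plxnb3 probe set, above the floor as well, was called in none of these comparisons. It gave -0.50 and -0.68 in C2C12-pMirn378 at d3 and d6, and -0.28 and -0.49 in C2C12-pMirn0. Plxna1, Plxna2, Plxna3 and Plxnb1 were not called. The other probe set of Plxnb1, also above the floor, was called lower in C2C12-pMirn378 at d6, with a log2 ratio of -1.40.

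Both neuropilins, which also bind vascular endothelial growth factors, rose. At d3, Nrp2 measured 2258, 2572 and 2263 with BMP2 against 885, 897 and 970.2 untreated in C2C12-pMirn378, and 3642, 3553 and 3897 with BMP2 against 1070.4, 1078 and 938 untreated in C2C12-pMirn0. Nrp2 at d6 measured 2796, 2948 and 2549 with BMP2 against 1396, 1575 and 1541 untreated in C2C12-pMirn378, and 5278, 5406 and 5496 with BMP2 against 1069.8, 1032 and 1200.4 untreated in C2C12-pMirn0. All BMP2 arrays were higher, by 1.36 ± 0.10 at d3 and 0.88 ± 0.10 at d6 in C2C12-pMirn378, and 1.85 ± 0.10 at d3 and 2.30 ± 0.10 at d6 in C2C12-pMirn0 (limma adjusted p at most 2.14e-07). In C2C12-pMirn378 at d6 the other Nrp2 probe sets, all above the floor, gave 0.33, 0.51 and 0.30 and were not called. Nrp1 rose by 1.54 and 1.32 in C2C12-pMirn378 at d3 and d6, and 1.23 and 0.97 in C2C12-pMirn0, and its brightest group was C2C12-pMirn378 with BMP2 at d6.

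The netrin receptor Unc5b gave one of the clearest rises. At d3, Unc5b measured 4307, 3687 and 3939 with BMP2 against 797, 748 and 800.2 untreated in C2C12-pMirn378, and 4142, 3857 and 4109 with BMP2 against 906, 773 and 639.6 untreated in C2C12-pMirn0. Unc5b at d6 measured 4553, 3501 and 4638 with BMP2 against 913, 891 and 1050.1 untreated in C2C12-pMirn378, and 4407, 3647 and 4241 with BMP2 against 715, 716 and 873 untreated in C2C12-pMirn0. BMP2 arrays lay between 3501 and 4638 and untreated arrays between 639.6 and 1050.1, and the ratios were 2.34 ± 0.12 at d3 and 2.14 ± 0.12 at d6 in C2C12-pMirn378, and 2.40 ± 0.12 at d3 and 2.42 ± 0.12 at d6 in C2C12-pMirn0 (limma adjusted p at most 2.68e-12). Robo1, a Slit receptor, rose as well. At d3, Robo1 measured 867, 1035 and 1064 with BMP2 against 545, 453 and 480.0 untreated in C2C12-pMirn378, and 1094, 1106 and 988 with BMP2 against 526, 603 and 456 untreated in C2C12-pMirn0. Robo1 at d6 measured 1026, 960.3 and 1124 with BMP2 against 328, 388 and 417 untreated in C2C12-pMirn378, and 1062, 940.0 and 986 with BMP2 against 443, 443 and 449 untreated in C2C12-pMirn0. The arrays did not overlap and the ratios were 1.00 ± 0.10 at d3 and 1.46 ± 0.10 at d6 in C2C12-pMirn378, and 1.02 ± 0.10 at d3 and 1.16 ± 0.10 at d6 in C2C12-pMirn0 (limma adjusted p at most 5.04e-08), although its other 2 probe sets, below the floor, gave -0.36 and -2.15 in C2C12-pMirn378 at d6. Unc50 rose at d3, by 1.06 in C2C12-pMirn378 and 0.74 in C2C12-pMirn0. Unc5c fell in C2C12-pMirn378 at d6 with a log2 ratio of -1.23 ± 0.21 and was not called elsewhere, and Robo3 was called nowhere.

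Among the Eph receptors, Epha4, which binds ephrins of both classes, fell furthest. At d3, Epha4 measured 36.6, 70.4 and 55.1 with BMP2 against 287, 302 and 324 untreated in C2C12-pMirn378, and 42, 42.3 and 35 with BMP2 against 228, 193 and 250.3 untreated in C2C12-pMirn0. Epha4 at d6 measured 28, 20.8 and 16.4 with BMP2 against 424, 453 and 419 untreated in C2C12-pMirn378, and 28.5, 31.8 and 27.5 with BMP2 against 370.0, 405 and 439 untreated in C2C12-pMirn0. With BMP2 every value was below the array median and untreated every value was above it, with ratios of -2.54 ± 0.18 at d3 and -4.35 ± 0.18 at d6 in C2C12-pMirn378, and -2.49 ± 0.18 at d3 and -3.79 ± 0.18 at d6 in C2C12-pMirn0 (limma adjusted p at most 2.24e-10). Epha7 was called in C2C12-pMirn378 and not in C2C12-pMirn0. Epha7 at d3 measured 29.5, 10.3 and 6.23 with BMP2 against 52.4, 88.8 and 52.2 untreated in C2C12-pMirn378, and 52.6, 64.2 and 31.1 with BMP2 against 127, 128 and 126 untreated in C2C12-pMirn0. Epha7 at d6 measured 7.62, 10.1 and 21.2 with BMP2 against 55.4, 93.2 and 83.7 untreated in C2C12-pMirn378, and 72.2, 75.5 and 68 with BMP2 against 119.5, 122 and 137 untreated in C2C12-pMirn0. BMP2 arrays lay below untreated arrays in both lines, with ratios of -2.34 ± 0.43 and -2.68 ± 0.43 in C2C12-pMirn378 and of -1.43 ± 0.43 and -0.81 ± 0.43 in C2C12-pMirn0 (limma adjusted p = 0.0132 and 0.164 in C2C12-pMirn0), and the difference between these ratios in the lines was not called (-0.91 ± 0.61 at d3 and -1.87 ± 0.61 at d6). Both Epha7 calls were lost with values under 50 set to 50 (-0.32 at d3 and -0.60 at d6), and the d3 call also with its next brightest probe set (-0.75). Ephb3 fell in all 4 comparisons, with log2 ratios of -1.07 and -1.12 in C2C12-pMirn378 at d3 and d6, and -1.07 and -0.79 in C2C12-pMirn0, and Ephb6, an Eph receptor without kinase activity, fell at d6 in both lines, with log2 ratios of -1.54 in C2C12-pMirn378 and -1.81 in C2C12-pMirn0. Epha1 was called lower in C2C12-pMirn378 at d3 (-1.58 ± 0.24). Epha2 rose, by 0.99 and 1.20 in C2C12-pMirn378 at d3 and d6, and 1.09 and 0.59 in C2C12-pMirn0, of which the last was not called, and Ephb4 rose at d3 alone, by 1.33 in C2C12-pMirn378 and 1.22 in C2C12-pMirn0, where it was lost without untreated replicate 1 (1.05).

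**Figure D3:**
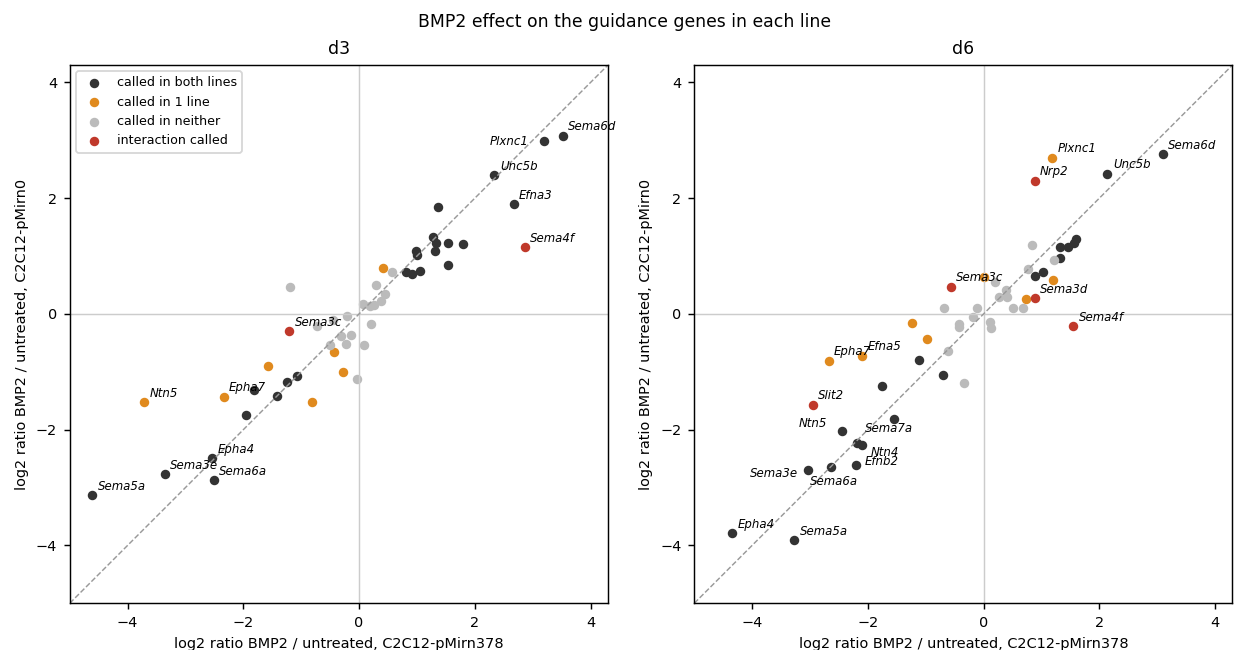
Log2 ratio of BMP2 over untreated in C2C12-pMirn378 (horizontal axis) against the same ratio in C2C12-pMirn0 (vertical axis) for the guidance genes above the floor, at d3 and d6, each point 1 gene, coloured by where it was called, with the line of equality dashed. Sema4f, at 1.55 in C2C12-pMirn378 and -0.21 in C2C12-pMirn0 at d6, lies well to the right of that line.

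The promoters of BMP2-raised and BMP2-lowered members were read for 2 short motifs, chosen with these directions known. RefSeq windows of 300 bases (250 before and 50 after a start, mouse build GRCm38.p6) were available for 62 of the 72 genes, among them 12 of the 14 raised and 10 of the 13 lowered. The E-box CAGCTG, bound by muscle transcription factors of the MyoD family and identical on both strands, occurred in 0 of 12 raised and 4 of 10 lowered genes (40%), where 18.3% of all 27025 genes with a window held it. The element GGCGCC, bound by SMAD1 and SMAD5 downstream of BMP receptors and also identical on both strands, occurred in 2 of 12 raised genes (Efna1 and Efna3) and 1 of 10 lowered genes (Efnb2), where 13.4% of all genes held it. A match is a description of the letters, and nothing on binding follows from it or from its absence. The 4 lowered promoters with CAGCTG, here in capitals, are shown with that of Unc5b, a raised gene with neither motif.
Ntn5 promoter (chr7:45683772-45684071, plus strand): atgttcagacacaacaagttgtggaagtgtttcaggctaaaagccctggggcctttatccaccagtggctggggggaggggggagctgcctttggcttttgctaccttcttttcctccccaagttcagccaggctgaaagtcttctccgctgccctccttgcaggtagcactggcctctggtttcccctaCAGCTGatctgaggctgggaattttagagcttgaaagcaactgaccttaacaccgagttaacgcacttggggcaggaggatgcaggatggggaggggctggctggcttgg
Ephb3 promoter (chr16:21204545-21204844, plus strand): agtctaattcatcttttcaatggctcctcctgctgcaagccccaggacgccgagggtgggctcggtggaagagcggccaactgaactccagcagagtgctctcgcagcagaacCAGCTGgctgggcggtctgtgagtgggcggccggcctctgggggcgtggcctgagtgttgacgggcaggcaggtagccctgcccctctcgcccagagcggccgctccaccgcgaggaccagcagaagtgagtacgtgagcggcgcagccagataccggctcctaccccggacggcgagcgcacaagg
Sema7a promoter (chr9:57939862-57940161, plus strand): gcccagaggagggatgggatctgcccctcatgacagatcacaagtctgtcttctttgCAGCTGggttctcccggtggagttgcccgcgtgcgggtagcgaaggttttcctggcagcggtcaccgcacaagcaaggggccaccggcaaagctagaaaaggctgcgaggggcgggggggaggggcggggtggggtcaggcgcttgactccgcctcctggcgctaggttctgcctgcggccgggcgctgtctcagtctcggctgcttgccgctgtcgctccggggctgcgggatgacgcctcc
Plxnb3 promoter (chrX:73756853-73757152, plus strand): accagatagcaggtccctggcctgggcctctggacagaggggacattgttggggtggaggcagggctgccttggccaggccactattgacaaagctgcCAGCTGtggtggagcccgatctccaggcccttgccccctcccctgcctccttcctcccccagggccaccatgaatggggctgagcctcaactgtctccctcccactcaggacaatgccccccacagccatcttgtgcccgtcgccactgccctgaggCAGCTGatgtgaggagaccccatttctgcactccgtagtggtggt
Unc5b promoter (chr10:60831532-60831831, minus strand): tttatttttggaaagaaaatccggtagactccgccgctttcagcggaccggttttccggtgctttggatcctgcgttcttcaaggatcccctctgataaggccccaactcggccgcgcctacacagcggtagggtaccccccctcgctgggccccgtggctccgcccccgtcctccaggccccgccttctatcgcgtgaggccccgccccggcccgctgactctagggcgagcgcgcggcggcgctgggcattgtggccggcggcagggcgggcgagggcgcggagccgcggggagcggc
The E-box began 60 bases before the start in Ntn5, 137 before in Ephb3 and 193 before in Sema7a, and Plxnb3 held it at 152 before and again at 6 after the start.

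Next, the course from d0 was followed in the control line. Untreated C2C12-pMirn0 cells, which form muscle, had 12 members higher and 10 lower after differentiation, where 11.5% and 11.7% of all genes were called, shares of 16.7% and 13.9% of the members. A change over this course was called when limma's adjusted p for d6 against d0 was below 0.005 and the log2 ratios over d0, averaged over both later days, lay beyond ±0.6, and this average is the mean ratio given. Ligands led the rises (Ntn5, Slit2, Sema3c, Sema3g, Sema3d, Ntn4, Sema3b, Slit1 and Sema6a) together with the receptors Epha7, Ephb3 and Ephb6. All 4 ephrins called (Efna1, Efna4, Efna5 and Efnb2) fell, as did Sema7a, Sema4f, Sema6d, Epha2, Unc5b and the dim Epha10.

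Ntn5 showed the largest rise: it measured 15.5, 17.3 and 15.1 at d0, 234, 202 and 251 at d3 and 483, 451 and 492 at d6. No value at d0 exceeded 17.3 and no later one fell short of 202, a mean log2 ratio of 4.37, or 2.72 with values under 50 set to 50 (limma adjusted p = 1.86e-09 for d6 against d0). Slit2 measured 367, 402 and 469 at d0, 1549.8, 1782 and 1535 at d3 and 2293, 2332 and 2499.9 at d6. It climbed at each step without overlap, with a mean ratio of 2.25 (limma adjusted p = 1.48e-16). Sema3c, a secreted semaphorin known from heart outflow tract development, measured 450.1, 471 and 529 at d0, 2521, 2636 and 2479.7 at d3 and 1831, 1834 and 1868 at d6. Its d3 values were the highest and those at d0 the lowest, with a mean ratio of 2.17 (limma adjusted p = 2.23e-13). Ephb3, a receptor of B-class ephrins, measured 226, 284 and 325 at d0, 1108, 959 and 1069 at d3 and 925, 903 and 882 at d6. The later values did not overlap those at d0, and the mean ratio was 1.82 (limma adjusted p = 2.1e-11). Epha7, a receptor of A-class ephrins, measured 23.7, 32.7 and 30.5 at d0, 127, 128 and 126 at d3 and 119.5, 122 and 137 at d6. Sema3g, a secreted semaphorin, measured 7.91, 24.8 and 40.7 at d0, 79.6, 86.4 and 86.4 at d3 and 60.9, 54.3 and 86.3 at d6. Both were lowest at d0 with no overlap, with mean ratios of 2.14 for Epha7 and 1.90 for Sema3g, whose call was lost without untreated replicate 3 at d6 (1.80) and with values under 50 set to 50 (0.57). Slit1, with a mean ratio of 1.37, was lost without d0 replicate 3 (1.21) or untreated d6 replicate 3 (1.32).

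Among the genes that fell, Sema7a measured 1808, 1821 and 2067 at d0, 688, 569 and 480.1 at d3 and 628, 587 and 689 at d6, a mean ratio of -1.65. Sema4f measured 608, 597 and 562 at d0, 224, 207 and 246 at d3 and 176, 184 and 184 at d6, a mean ratio of -1.54. In both the d0 arrays were the highest. Epha2, a receptor of A-class ephrins, measured 1192, 1343 and 1446 at d0, 534, 334 and 427 at d3 and 506, 517 and 531 at d6, a mean ratio of -1.50. Efnb2 measured 2634, 2630.0 and 2907 at d0, 946, 930.1 and 1290.4 at d3 and 987, 896 and 955 at d6, a mean ratio of -1.45. Here too no later array reached the d0 values. Sema6d measured 270.0, 204 and 247 at d0, 122, 100.0 and 119 at d3 and 140.2, 133 and 119 at d6, a mean ratio of -0.97. Efna4 measured 469, 450.4 and 403 at d0, 256, 219 and 244 at d3 and 208, 202 and 246 at d6, a mean ratio of -0.95. All 6 of these falls passed with a limma adjusted p of at most 6.93e-05 for d6 against d0 and had no overlap with d0. The dim Epha10, with a mean ratio of -1.58, was lost without d0 replicate 2 (-0.99) or untreated d6 replicate 2 (-1.47) or 3 (-1.53), and with values under 50 set to 50 was 0.00. Efna5 was also called lower, but the call was lost without any single array at d0 or untreated at d6 (ratios of -0.87 to -0.76), and its next brightest probe set, below the floor, gave 1.27.

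With BMP2, C2C12-pMirn0 cells had 15 members higher and 13 lower than at d0 (20.8% and 18.1%), where 11.6% and 10.2% of all genes were called. These ratios share the d0 arrays with the untreated course, and the BMP2 values at d3 and d6 are those given above. Plxnc1, at 20.9, 21.4 and 7.3 at d0, had a mean ratio of 3.68. Nrp2, at 713, 761 and 846 at d0, had one of 2.53. Ntn5 and Sema6d, with the d0 values above, had ratios of 2.59 and 1.95, so Ntn5 rose with and without BMP2 while Sema6d rose with BMP2 and fell without it. Neither Sema6d change was called through its next brightest probe set. Sema3c measured 2075, 1916 and 2234 with BMP2 at d3 and 2571, 2500.1 and 2569 at d6, a mean ratio of 2.25 over d0. Sema3d, a secreted semaphorin, measured 698, 699.7 and 676 at d0, 3353, 3453 and 3328 with BMP2 at d3 and 2101, 2109 and 2075 at d6, a mean ratio of 1.94. No later BMP2 array of these 6 genes overlapped d0, and the limma adjusted p for d6 against d0 was at most 6.58e-06.

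Of those that fell with BMP2, Sema7a had a mean ratio of -3.64 and Efnb2 one of -3.27 from the d0 values above. Sema5a measured 108, 137 and 153 at d0 and had a mean ratio of -3.41. Epha4 measured 271, 233 and 281 at d0, a ratio of -2.94. In untreated cells the same 2 genes had ratios of 0.11 and 0.20, neither called. Sema3e measured 1513, 1563 and 1349.6 at d0, a ratio of -2.25. Sema6a measured 325, 329 and 367 at d0, a ratio of -1.88. Untreated Sema6a went the other way, by 0.88, and was called. Also higher with BMP2 were Sema3b (1.89), Unc5b (1.59), Nrp1 (1.25) and Slit2 (0.88). Calls that were lost when 1 array was left out were those of Efna2 (d0 replicate 2, 0.72, and any d6 BMP2 array, 1.18 to 1.21), Unc50 (7 of 9 arrays, 0.59 to 0.72), Sema4b (4 of 9 arrays, -0.93 to -0.86), Sema3a (d0 replicate 1, -0.58, and d6 BMP2 replicate 1, -0.59) Epha2 (d0 replicate 3, -0.59) and the dim Epha10 (d0 replicate 2, -0.97, and d6 BMP2 replicate 2, -1.47). With values under 50 set to 50, the calls of Epha10 (0.00) and Sema3g (0.35) were lost, and the ratios of Plxnc1, Ntn5 and Sema5a shrank to 1.93, 0.98 and -1.39.

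The comparison of C2C12-pMirn378 with C2C12-pMirn0 asked which guidance genes differed where the miR-378 precursor was expressed. Few did without BMP2: at d0, 1 member was higher and 1 lower, where 0.121% and 0.709% of all genes were called. Untreated at d3, 0 were higher and 1 lower (0.418% and 0.297% of all genes), and untreated at d6, 0 were called in either direction (0.165% and 0.0824%). With BMP2, 3 were higher and 4 lower at d3 (2.49% and 1.87% of all genes), and 5 were higher and 4 lower at d6 (1.54% and 1.32%). Every one of these line calls was lost when only the 6 arrays compared were fitted, a setting with far fewer residual degrees of freedom. Beside these calls, the summed intensity of 4 genes of dividing cells at d3 with BMP2 was 12008 to 12376 in C2C12-pMirn378 and 3127 to 3448 in C2C12-pMirn0, and that of the 4 bone genes was higher in C2C12-pMirn378 as given above. At d6 with BMP2 the dividing-cell sums overlapped, at 1585 to 1810.3 in C2C12-pMirn378 and 1695 to 1718 in C2C12-pMirn0, and the bone sums did not, at 7857 to 9736 in C2C12-pMirn378 and 3924 to 4293 in C2C12-pMirn0. The blood sums with BMP2 were also higher in C2C12-pMirn378 (900.1 to 1026 against 354.1 to 426.8 in C2C12-pMirn0 at d3, and 510.6 to 590.7 against 192.2 to 240.3 in C2C12-pMirn0 at d6) and the adipocyte sums lower (1564 to 1725 against 2557 to 3031 in C2C12-pMirn0 at d3, and 2593 to 2713 against 3988 to 4186 in C2C12-pMirn0 at d6). The part of the markers that differed in the differences between the lines was not tested.

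**Figure D4:**
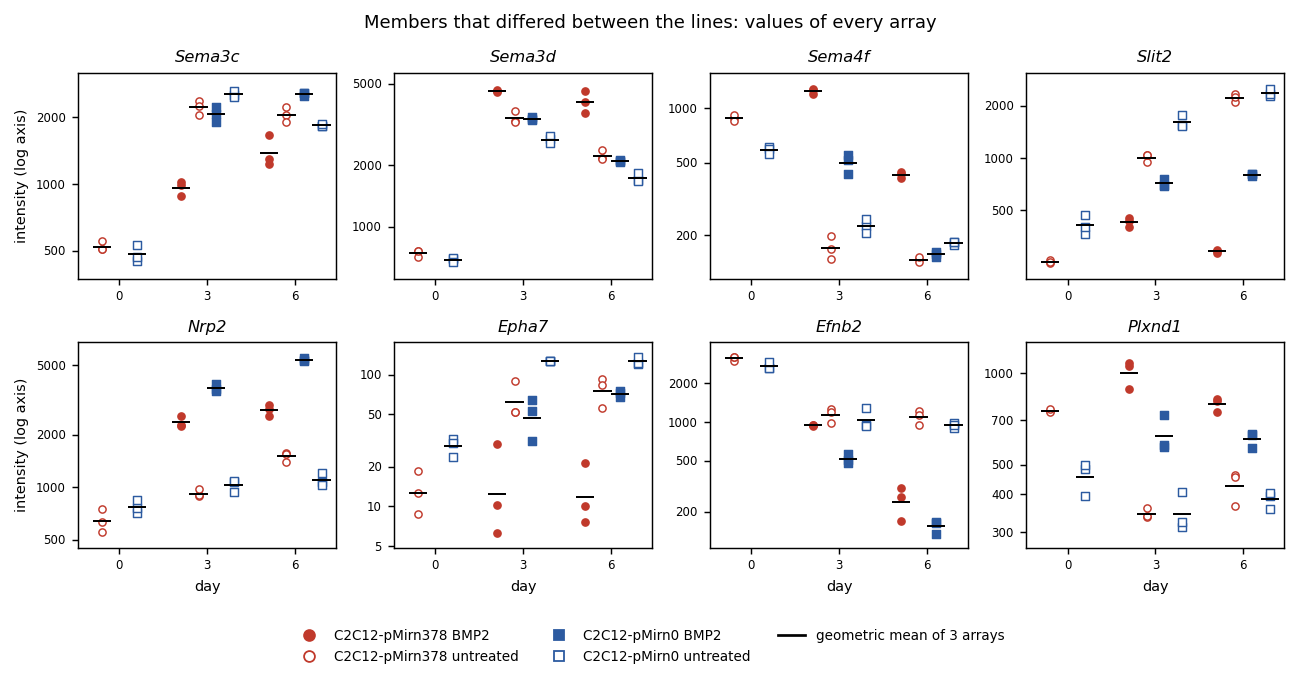
Intensity (log axis) of 8 guidance genes called between the lines, 1 panel per gene, by day, each point 1 array (filled with BMP2, open untreated; circles C2C12-pMirn378, squares C2C12-pMirn0) and bars the geometric mean of 3. Slit2, Nrp2 and Sema3c lie lower in C2C12-pMirn378 with BMP2, and Sema4f and Sema3d higher.

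Slit2 was called in more of the line comparisons than any other member. At d0 it measured 249, 258 and 251 in C2C12-pMirn378 and 367, 402 and 469 in C2C12-pMirn0, and untreated at d3 943, 1035 and 1040.2 in C2C12-pMirn378 and 1549.8, 1782 and 1535 in C2C12-pMirn0. With BMP2 at d3 Slit2 measured 398, 431 and 453 in C2C12-pMirn378 and 689.9, 761 and 701 in C2C12-pMirn0, and at d6 294, 292 and 282 in C2C12-pMirn378 and 783, 806 and 805 in C2C12-pMirn0. C2C12-pMirn378 was lower in these 4 comparisons without overlap, with log2 ratios of -0.70 ± 0.08, -0.69 ± 0.08, -0.75 ± 0.08 and -1.47 ± 0.08 (limma adjusted p = 1.54e-05, 3.2e-05, 9.34e-07 and 2.31e-10). Untreated at d6, Slit2 measured 2117, 2333 and 2258 in C2C12-pMirn378 and 2293, 2332 and 2499.9 in C2C12-pMirn0, and the arrays overlapped. The other 2 probe sets of Slit2 gave -1.12 and -1.11 at d6 with BMP2 but 0.46 and -0.40 at d0. Through the next brightest of them, the call at d6 with BMP2 was kept. Those at d0, untreated at d3 and with BMP2 at d3 were lost.

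Other ligands divided by direction. Sema3c with BMP2 measured 1027, 884 and 986 in C2C12-pMirn378 and 2075, 1916 and 2234 in C2C12-pMirn0 at d3. At d6 with BMP2, Sema3c measured 1299, 1659 and 1235 in C2C12-pMirn378 and 2571, 2500.1 and 2569 in C2C12-pMirn0. C2C12-pMirn378 arrays were lower at both days, with log2 ratios of -1.10 ± 0.10 and -0.88 ± 0.10 (limma adjusted p = 4.25e-08 and 2.02e-06). Neither call was kept by the next brightest Sema3c probe set. Sema4f with BMP2 measured 1197, 1266 and 1259 in C2C12-pMirn378 and 434, 519 and 551 in C2C12-pMirn0 at d3. At d6 with BMP2, Sema4f measured 444, 437 and 412 in C2C12-pMirn378 and 162, 157 and 153 in C2C12-pMirn0. Here C2C12-pMirn378 was higher at both days, by 1.31 ± 0.09 and 1.45 ± 0.09 (limma adjusted p = 1.78e-09 and 1.27e-09). Sema3d at d6 with BMP2 measured 4056, 3589 and 4610.2 in C2C12-pMirn378 and 2101, 2109 and 2075 in C2C12-pMirn0. It was higher in C2C12-pMirn378 by 0.96 ± 0.07 (limma adjusted p = 1.48e-08). Efnb2 at d3 with BMP2 was 954, 949.8 and 939 in C2C12-pMirn378 and 567, 483 and 505 in C2C12-pMirn0, and Ntn1 at d6 with BMP2 was 493, 445 and 448 in C2C12-pMirn378 and 311, 319 and 278 in C2C12-pMirn0. Both were higher in C2C12-pMirn378 without overlap, Efnb2 by 0.87 ± 0.16 and Ntn1 by 0.61 ± 0.09 (limma adjusted p = 0.000702 and 4.52e-05), but the Efnb2 call was lost without C2C12-pMirn0 replicate 2 (0.82) and the Ntn1 call without C2C12-pMirn0 replicate 3 (0.55) or C2C12-pMirn378 replicate 1 (0.56), and the other Ntn1 probe set gave -0.63.

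Receptors that differed were Nrp2, Nrp1, Plxnd1, Plxna4 and Epha7. Nrp2 with BMP2 measured 2258, 2572 and 2263 in C2C12-pMirn378 and 3642, 3553 and 3897 in C2C12-pMirn0 at d3. At d6 with BMP2, Nrp2 measured 2796, 2948 and 2549 in C2C12-pMirn378 and 5278, 5406 and 5496 in C2C12-pMirn0. It was lower in C2C12-pMirn378 at both days, with log2 ratios of -0.65 ± 0.10 and -0.97 ± 0.10 (limma adjusted p = 8.74e-05 and 8.09e-07). The other Nrp2 probe sets gave -0.59, -0.20 and -0.59 at d3, none called. At d6 they gave -1.06, -0.52 and -0.53, of which only the first was called. Plxnd1 measured 751, 742 and 761 in C2C12-pMirn378 and 483, 394 and 499 in C2C12-pMirn0 at d0. At d3 with BMP2, Plxnd1 measured 1078, 1057 and 884 in C2C12-pMirn378 and 729, 578 and 572 in C2C12-pMirn0. C2C12-pMirn378 was higher, by 0.72 ± 0.12 at d0 and 0.69 ± 0.12 at d3 (limma adjusted p = 0.00102 and 0.000337), and the d0 call was lost without C2C12-pMirn0 replicate 2 (0.61) or C2C12-pMirn378 replicate 3 (0.71). At d6 with BMP2, Plxna4 measured 277, 236 and 328 in C2C12-pMirn378 and 167, 143 and 119 in C2C12-pMirn0, and Nrp1 measured 5204, 4867 and 5254 in C2C12-pMirn378 and 3353, 3399 and 3311 in C2C12-pMirn0. Both were higher in C2C12-pMirn378, by 0.97 ± 0.19 and 0.61 ± 0.09 (limma adjusted p = 0.00142 and 9.03e-05). The Plxna4 call was lost without replicate 2 or 3 of C2C12-pMirn0 (0.98 and 0.85) or replicate 1 or 3 of C2C12-pMirn378 (0.97 and 0.85), and that of Nrp1 without replicate 3 of C2C12-pMirn0 (0.60) or replicate 1 or 3 of C2C12-pMirn378 (0.59 each). Epha7 was lower in C2C12-pMirn378 with BMP2, with log2 ratios of -1.93 ± 0.43 at d3 and -2.61 ± 0.43 at d6, but both groups were then below the array median. The d3 call was lost without replicate 1 or 2 of C2C12-pMirn0 (-1.86 and -1.71) or replicate 2 or 3 of C2C12-pMirn378 (-1.80 and -1.44), and with values under 50 set to 50 the ratios shrank to -0.14 and -0.52 and were not called.

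The effect of BMP2 differed between the lines for 5 members. In the test of that difference, C2C12-pMirn378 minus C2C12-pMirn0, 1 member was higher and 1 lower at d3, where 1.15% and 0.874% of all genes were called, and 2 were higher and 3 lower at d6, where 1.03% and 1.02% were. For Sema3c the BMP2 ratio was -1.21 in C2C12-pMirn378 and -0.30 in C2C12-pMirn0 at d3, a difference of -0.91 ± 0.14 (limma adjusted p = 0.000262), and -0.57 and 0.47 at d6, a difference of -1.03 ± 0.14 (limma adjusted p = 5.83e-05). Sema4f differed by 1.71 ± 0.13 at d3 and 1.75 ± 0.13 at d6 (limma adjusted p = 9.91e-08 and 4.84e-08). At d6, Nrp2 rose by 0.88 with BMP2 in C2C12-pMirn378 and by 2.30 in C2C12-pMirn0, a difference of -1.42 ± 0.14, and Slit2 fell by 2.95 in C2C12-pMirn378 and by 1.57 in C2C12-pMirn0, a difference of -1.38 ± 0.12 (limma adjusted p = 1.68e-06 and 2.05e-07). Untreated Nrp2 at d6 measured 1396, 1575 and 1541 in C2C12-pMirn378 and 1069.8, 1032 and 1200.4 in C2C12-pMirn0, a line difference of 0.45 ± 0.10 that was not called (limma adjusted p = 0.0306). The Sema3d difference at d6, 0.60 ± 0.10 (limma adjusted p = 0.00111), was at the ratio threshold and was lost when any of 5 of the 12 arrays was left out, at 0.51 to 0.60. Through the next brightest probe set, the differences of Sema4f and Nrp2 stayed called. Those of Sema3c at both days and of Slit2 and Sema3d at d6 did not.

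**Figure D5:**
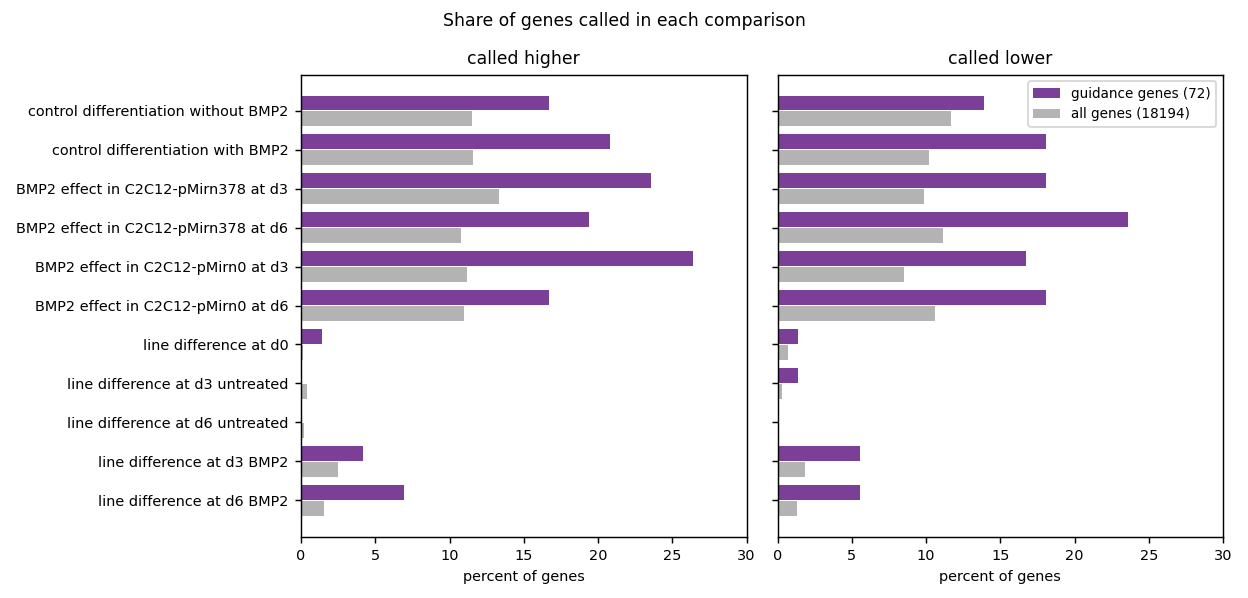
Share of the 72 guidance genes (percent, upper bar of each pair) and of all 18194 genes (lower bar) called higher or lower in each comparison. For BMP2 at d3 in C2C12-pMirn0, 26.4% of the members and 11.2% of all genes were called higher.

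Genes that act with these families were read from a list of 60 co-receptors, cofactors and cytoplasmic mediators, of which 58 were measured and 49 were above the floor. With BMP2 in C2C12-pMirn378, 16 rose and 12 fell at d3 (13.3% and 9.84% of all genes), and 13 and 15 at d6 (10.8% and 11.1%). In C2C12-pMirn0, 13 rose and 13 fell at d3 (11.2% and 8.48% of all genes), and 7 and 16 at d6 (11.0% and 10.6%). The netrin and repulsive guidance receptor neogenin (Neo1) rose in all 4 comparisons, by 1.14 and 1.52 in C2C12-pMirn378 at d3 and d6 and by 1.44 and 1.89 in C2C12-pMirn0, while its ligands Rgma (-2.77, -2.54, -2.83 and -2.18 in the same order) and Rgmb (-1.02, -1.30, -1.02 and -1.64) fell. Dcc, another netrin receptor, gave ratios of 0.46, 0.07, 0.12 and 0.02 and was not called. The neuropilin ligand Vegfa rose by 1.03 and 2.26 in C2C12-pMirn378 and by 1.03 and 1.77 in C2C12-pMirn0, and Dpysl3, a collapsin response mediator, also rose in all 4. The median log2 ratio over the list was 0.18 and 0.06 in C2C12-pMirn378 and 0.19 and -0.02 in C2C12-pMirn0, and its counts are to be read against the shares of all genes given for the same comparisons. Between the lines the list had 0 calls at d0 and untreated at d6, and 1 lower (Dpysl3) untreated at d3, where 0.297% of all genes were. With BMP2 at d3 it had 3 higher (Sdc3, Chn2 and Cdk5) and 2 lower (Met and Srgap3), against 2.49% and 1.87% of all genes. At d6 with BMP2 it had 3 higher (Ablim1, Nck2 and Chn2) and 1 lower (Met), against 1.54% and 1.32%.

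Over all 10 groups, 14 of the 52 guidance genes above the floor (26.9%) had their highest mean in C2C12-pMirn378 with BMP2 at d3, where 16.9% of the 12052 genes above the floor did. Another 8 peaked in untreated C2C12-pMirn378 at d3 (15.4%, against 7.96% of all genes) and 8 in C2C12-pMirn0 at d0 (15.4%, against 12.3%), but only 2, Efnb2 and Efnb3, in C2C12-pMirn378 at d0 (3.85%, against 14.3%). From the lowest to the highest group mean, Efnb2, above the floor in every group, spanned 20.2-fold, and Sema4c (1.39-fold) and Plxna2 (1.40-fold) were among the flattest.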

How the data were processed

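RNA from triplicate experiments per group was hybridised to Affymetrix GeneChip arrays that cover the mouse genome. The paper's methods name RMA with quantile normalization in R 2.4.1. The deposited data held 1 linear intensity for each probe set and array, taken as it was and transformed to log2 without an offset. These intensities ran from 0.0561 to 40201. Whether they are the RMA output that the methods describe was not settled. Array medians of the deposited values still differed, so median scaling was among the alternatives. The number of arrays limits the precision, and no probe set detection calls were used. Separate cultures are stated only as triplicate experiments, so p-values measure the spread between these samples.

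All 10 groups were fitted together with limma 3.58.1 in R 4.3.3 (20 residual degrees of freedom), with empirical Bayes variances and Benjamini-Hochberg adjustment over 45101 probe sets within each comparison. Calls needed an adjusted p below 0.005 and a log2 ratio beyond ±0.6. Tables were made with Python 3.11.15, pandas 2.3.3 and numpy 2.4.6. Symbols came from the platform annotation: 34958 probe sets had 1 symbol, 932 several and 9211 none, and only the first kind was used. All 72 member symbols were found in RefSeq by gene identifier, and 25 members had a single probe set. Array values were printed for the up to 6 members with the largest change in each direction and comparison among those called, with 1 group above the array median. The script was tested on simulated data. The members, lists, motifs and tests were chosen with earlier results of these data known. Alternatives were median scaling, an offset of 16, a floor of 50, leaving out dim probe sets, the next brightest probe set, only the groups compared, a replicate block, a trended robust variance and leaving out each array.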

Additional observations from a re-analysis of the deposited data

Results flagged for a closer look

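The effect of BMP2 differed between C2C12-pMirn378 and C2C12-pMirn0 in a limma test of the difference itself for 5 guidance genes. Of the 72 members, 1.39% were called higher and 1.39% lower at d3, close to the 1.15% and 0.874% of all genes. For d6 these shares were 2.78% and 4.17% of the members, against 1.03% and 1.02% of all genes. At d3 the difference, C2C12-pMirn378 minus C2C12-pMirn0 on the log2 scale, was -0.91 for Sema3c and 1.71 for Sema4f. At d6 it was -1.03 for Sema3c and 1.75 for Sema4f, -1.42 for Nrp2, -1.38 for Slit2 and 0.60 for Sema3d. The differences of Sema3c, Slit2 and Sema3d were not called through the next brightest probe set. With BMP2 C2C12-pMirn378 had higher bone marker sums than C2C12-pMirn0 at both days, and higher dividing-cell sums at d3 alone, those at d6 overlapping at 1585 to 1810.3 in C2C12-pMirn378 and 1695 to 1718 in C2C12-pMirn0. The part of the markers that differed in these differences was not tested. With 3 arrays per group, single arrays were not examined for standing apart.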

How the results depend on the processing

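Of 193 member calls, 191 were kept with an offset of 16, 191 with a trended robust variance, 184 after median scaling and 183 with values under 50 set to 50. All 190 calls on members that were not dim were kept when dim probe sets were left out, and a replicate block kept 191. Same-numbered arrays correlated weakly, at -0.071 to 0.124, in their deviations from the group means. In each pair of groups, 2 to 6 of the 6 arrays correlated best with the array of their own number. It was all 6 for BMP2 against untreated in C2C12-pMirn378 at d3 and d6 and in C2C12-pMirn0 at d6, and 2 between the lines at d0. Whether the numbers pair the samples was therefore left unsettled. The replicate block gave, for example, 12 members higher and 9 lower in the untreated control course. Median scaling moved the median of all genes by -0.100 (log2) in C2C12-pMirn378 and -0.102 in C2C12-pMirn0 for BMP2 at d3 and gave there 16 higher and 14 lower in C2C12-pMirn378 and 17 and 15 in C2C12-pMirn0.

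Fitting only the groups compared ended 71 calls and gave for BMP2 at d3 10 members higher in C2C12-pMirn378, and 8 higher and 6 lower in C2C12-pMirn0. It gave 0 line calls at d0, untreated at d3, and with BMP2 at d3 and at d6, and 1 and 3 differences in the BMP2 effect at d3 and d6; this fit has fewer residual degrees of freedom. Of 154 calls on genes with another probe set, 94 were kept by the next brightest one, 50 lost and 10 turned in sign. It gave 0 line calls untreated at d3, 4 with BMP2 at d3, and 2 differences in the BMP2 effect at d6. A floor of 50 gave 2 line calls untreated at d3 and 8 differences in the BMP2 effect at d6. The signs turned were those of Efna5 in the control course without BMP2 (1.27) and with it (0.43), Slit1 in the untreated course (-0.79) and with BMP2 in C2C12-pMirn0 at d3 (0.90) and d6 (0.13), Ntn1 in the control course with BMP2 (0.38), in the BMP2 effect in C2C12-pMirn0 at d6 (0.13) and in the line difference for BMP2-treated d6 cells (-0.63), Robo1 in the BMP2 effect in C2C12-pMirn378 at d6 (-0.36), and Slit2 between the lines at d0 (0.46); the cause was not tested. Each call was also checked without each array of its groups in turn, and in 76 of these 1350 checks the call was lost. Some calls were lost in several checks. The line count at d0 ran between 1 and 3.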

Other observations

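Sema4d, a membrane-spanning semaphorin that binds plexin B1, was called in no comparison through its brightest probe set, with ratios of -0.27 over the untreated control course and -0.45 to -0.05 for BMP2 over untreated. Its next brightest probe set, with a mean intensity of 57.4 against 77.2, gave 2.30 over the untreated course, -1.90 and -2.52 for BMP2 over untreated in C2C12-pMirn378 at d3 and d6, and -1.93 and -2.70 in C2C12-pMirn0. Among called members with another probe set above the floor, none was called in the opposite direction through it in any comparison.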
